A study of Mus musculus with 12 samples.

Results

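The matrix metalloproteinases and their inhibitors were followed in mouse liver as 10 genes, chosen by name, of 24296 gene symbols in the table, 13158 of which were tested. They are the matrix metalloproteinases Mmp2, Mmp9, Mmp12, Mmp13, Mmp14 and Mmp19, the tissue inhibitors Timp1, Timp2 and Timp3, and the related protease Adamts1. All 10 passed the filter on low values. Male C57/BL6N mice were used, and the liver RNA of 12 samples was sequenced, with 3 livers in each of 4 groups. The control group is labelled WT, with no agent named. The model group received carbon tetrachloride (CCl4), a liver toxin used to induce fibrosis, by intraperitoneal injection as a 1:9 mixture with olive oil by volume, with a stated dosage of 5 mL/kg, 2 times a week for 8 weeks. The silibinin group received the same CCl4 and, from week 5, silibinin, a flavonolignan of milk thistle. The phloridzin group received the same CCl4 and, from week 5, phloridzin, a plant glucoside known as an inhibitor of sodium-glucose cotransport. The sequenced phloridzin livers came from the highest of several doses, which the labels do not state. The age of the mice is not given in the sources used here. The labels do not say that each library came from its own mouse, so the p-values measure the spread between these libraries.

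Matrix metalloproteinases are zinc-dependent enzymes that cut collagens, gelatin, elastin and other proteins outside the cell. Most are secreted or held at the membrane as inactive precursors, and other proteases, among them plasmin and furin, can remove the part that blocks the active site. The tissue inhibitors of metalloproteinases (TIMPs) bind the active enzymes and block them. In a fibrotic liver, scar matrix builds up while stellate cells, macrophages and other cells express both proteases and inhibitors, and the balance between both sides is a long-standing question in the field. The ADAMTS enzymes are secreted relatives that cut proteoglycans and process procollagens. The values below are RNA levels, and neither protein nor enzyme activity was measured.

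Levels are given as FPKM, fragments divided by the length of the transcript and the size of the library, summed over all transcripts of a gene. The libraries held between 83.7 and 110.9 M fragments, as recovered from the values, with medians of 108.4 M in the control group, 100.1 M in the model group, 110.1 M in the silibinin group and 102.1 M in the phloridzin group. Groups were compared by limma on log2(FPKM + 1), and the p-values of each comparison were adjusted by the Benjamini-Hochberg method over all 13158 genes. A gene was called where the adjusted p was under 0.05 and the log2 fold change exceeded 1 in either direction. Because 1 is added to each value, genes with low FPKM show smaller fold changes than their FPKM alone would give.

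Compared with the control group, 6 of the 10 genes were called higher in the model group, namely Mmp2, Mmp12, Mmp13, Timp1, Timp2 and Adamts1, while 10.5% of all genes tested were called. Compared with the model group, Mmp13 and Adamts1 were called lower in the silibinin group, 2 of 10 genes against 4% of all genes. The same pair was called lower in the phloridzin group, again 2 of 10, against 3.52% of all genes. Mmp2, Mmp12 and Timp2 were called higher than in the control group with either drug, 3 of 10 genes, against 1.98% of all genes with silibinin and 3.02% with phloridzin. Between phloridzin and silibinin, limma called 0 of 10 genes, 0 of them had an unadjusted p under 0.05, voom of limma also called 0, and 0.0228% of all genes were called. The 10 genes were chosen with earlier results of these data known. Their shares beside those of all genes are therefore a description and no independent support. The comparisons share the livers of the model or the control group and are not independent of each other. An unadjusted p under 0.05 by limma was common over all 13158 genes, with 6030 genes in the model group against the control group. Against the model group it was 3844 with silibinin and 3662 with phloridzin, and between the drugs 494. Against the control group it was 2830 with silibinin and 3235 with phloridzin. Counts of such p-values in the lists below are to be read beside these.

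**Figure D1:**
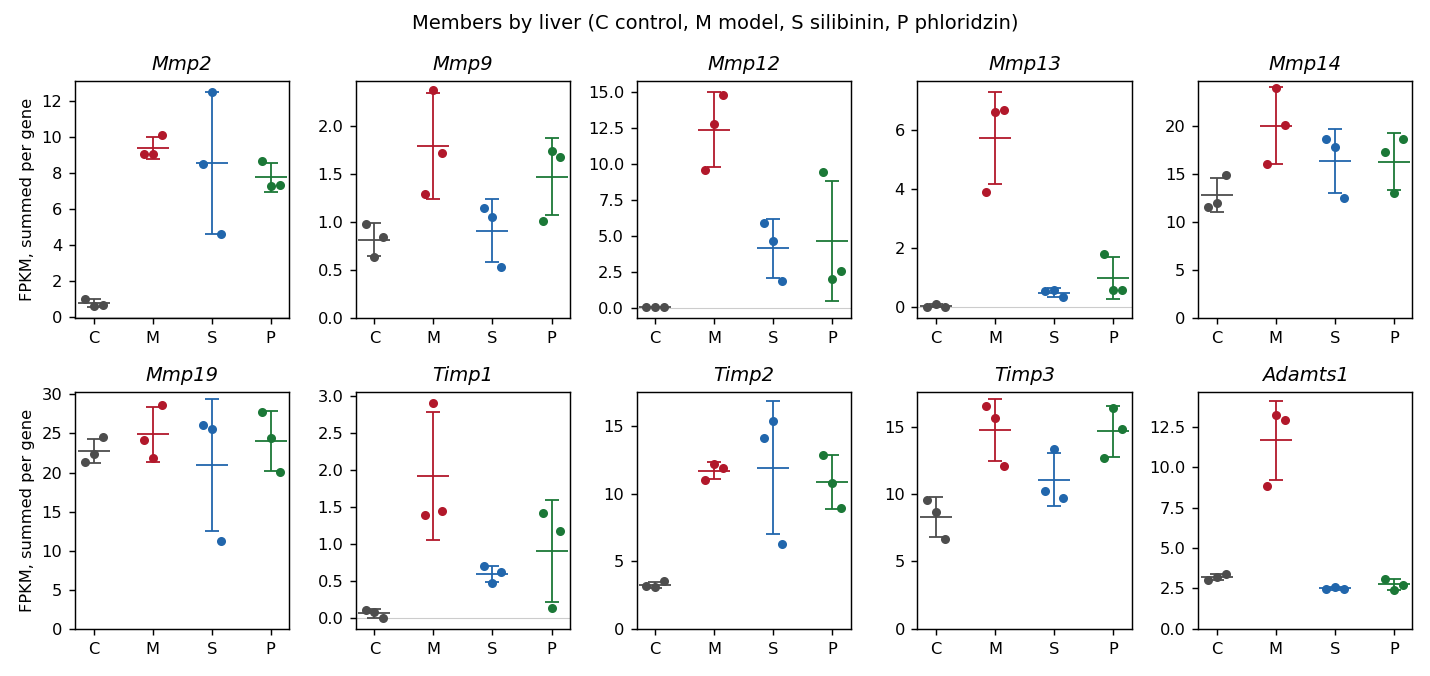
Summed FPKM of the 10 genes in each of 12 livers, with 1 point a liver, the group mean as a horizontal line and the SD as the error bar (n = 3 livers a group). Mmp13 and Adamts1 were high in the 3 model livers alone, while Mmp2 and Timp2 were high in the model livers and in most drug-treated livers.

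A shift common to many genes lies under these values. The median log2 fold change of all genes tested was 0.34 in the model group against the control group, -0.15 in the silibinin group against the model group and -0.11 in the phloridzin group against the model group. After scaling the livers by median ratios these medians were 0.05, 0 and 0.02. In the model group 1240 genes were called higher and 142 lower, and after scaling the split was 584 and 378. Against the model group, 98 genes were called higher and 428 lower with silibinin (183 and 248 after scaling), and 79 higher and 384 lower with phloridzin (138 and 249 after scaling). The calls of the 10 genes were the same with and without scaling in all 6 comparisons. For the genes of the lists below only values without scaling are given, and calls near the cutoff may depend on it.

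Mmp13 is the main collagenase of rodents, which cuts fibrillar collagen. It lies on chromosome 9 of GRCm38 from 7272514 to 7283331 on the plus strand, and the table holds 1 transcript of it, which is protein-coding. In the control livers it was listed at 0, 0.0966 and 0.0137 FPKM, which rests on at most 28 fragments. The model livers had 3.91, 6.59 and 6.66 FPKM, the silibinin livers 0.551, 0.591 and 0.326 FPKM, and the phloridzin livers 1.81, 0.575 and 0.57 FPKM. Every model liver lay above every other liver, and every drug-treated liver lay above every control liver. The rise in the model group was 2.67 on the log2 scale (standard error 0.24, limma, Benjamini-Hochberg adjusted p = 7.5e-05). Against the model group it fell by 2.15 with silibinin (standard error 0.24, limma, adjusted p = 0.00033), to 8.55% of the model mean. With phloridzin it fell by 1.79 (standard error 0.24, limma, adjusted p = 0.0012), to 17.2% of the model mean. This percentage was raised by phloridzin replicate 1, at 1.81 FPKM beside 0.575 and 0.57 FPKM. Leaving out each liver in turn gave -2.07 to -1.65 for the phloridzin difference. What remained above the control group, 0.52 with silibinin (adjusted p = 0.24) and 0.88 with phloridzin (adjusted p = 0.049) by limma, was not called. Without phloridzin replicate 3 the latter was 1.02 and called (limma, adjusted p = 0.041), and on log2(FPKM + 0.1) both were called, at 2.14 and 2.87 (adjusted p = 0.019 and 0.0047). With voom both were called as well, at 5.08 and 5.91 (adjusted p = 0.047 and 0.023), beside control livers with at most 28 fragments.

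Mmp12, the macrophage elastase, lies near Mmp13 on chromosome 9, from 7347374 to 7360461 on the plus strand. It was nearly absent in the control livers, at 0.0382, 0.0247 and 0.0346 FPKM, on 12 to 18 fragments a liver. In the model livers it reached 9.6, 12.8 and 14.8 FPKM, which put it in place 4 of the 10 genes by mean level. The silibinin livers had 5.89, 4.68 and 1.88 FPKM and the phloridzin livers 9.42, 1.97 and 2.53 FPKM. No drug-treated liver reached the lowest model liver, but phloridzin replicate 1 was close to it, and the other drug-treated livers were well below. The rise in the model group was 3.68 on the log2 scale (standard error 0.44, limma, Benjamini-Hochberg adjusted p = 0.00029). The differences from the model group missed the threshold, at -1.45 with silibinin (95% interval -2.43 to -0.47, limma, adjusted p = 0.053) and -1.47 with phloridzin (95% interval -2.45 to -0.49, adjusted p = 0.055). With voom both were called, at -1.7 and -1.91 (adjusted p = 0.043 and 0.034), and a fit of only the 2 groups called the silibinin difference (limma, adjusted p = 0.044). Without phloridzin replicate 1 both were called as well, silibinin at an adjusted p of 0.0092 and phloridzin at -2.03 (limma, adjusted p = 0.0037). The silibinin difference was also called without phloridzin replicate 2 (adjusted p = 0.045), and the phloridzin difference without silibinin replicate 3 (adjusted p = 0.043). Leaving out each liver in turn gave -1.71 to -1.08 for silibinin and -2.03 to -1.12 for phloridzin. Mmp12 stayed above the control group by 2.23 with silibinin (limma, adjusted p = 0.021) and 2.21 with phloridzin (adjusted p = 0.017). These last calls were lost on leaving out any 1 of the 3 control livers, with adjusted p between 0.062 and 0.068 for silibinin and between 0.052 and 0.057 for phloridzin. The phloridzin call was also lost with only the 2 groups in the fit (adjusted p = 0.068). The silibinin call was also lost without silibinin replicate 1 or 2 (adjusted p = 0.088 and 0.091).

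RefSeq promoter windows on GRCm38.p6, from 250 bases before to 50 bases after a gene's start, were found for 7 of the 10 genes, and Mmp12 has 2 of them. Mmp2, Mmp9 and Mmp19 have no entry. The windows were searched for TGANTCA, the core letters of the AP-1 motif, which read the same on both strands. AP-1 is a dimer of Fos and Jun proteins known for binding in metalloproteinase promoters. The motif was found in 1 window each of Mmp13 and Mmp12, 2 of the 8 windows of these genes, and in 7.81% of all 32851 windows. The starts used for Mmp14, Timp2, Timp3 and the other Mmp12 window are not those of the deposited transcripts. The motif began 35 bases before the start of Mmp13 and 44 bases before that of Mmp12. The 100 bases before the start are printed for these genes, whose RNA had the largest rises of the 10 in the model group, and for Adamts1, whose RNA fell with both drugs as that of Mmp13 did and whose window holds no match. Capitals mark the motif. The stretches are chr9:7272414-7272513 (plus strand) for Mmp13, chr9:7347274-7347373 (plus strand) for Mmp12 and chr16:85803114-85803213 (minus strand) for Adamts1. A match in these letters is a description of the sequence and does not show that a protein binds there.
Mmp13: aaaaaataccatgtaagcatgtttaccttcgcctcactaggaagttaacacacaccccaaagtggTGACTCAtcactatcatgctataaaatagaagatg
Mmp12: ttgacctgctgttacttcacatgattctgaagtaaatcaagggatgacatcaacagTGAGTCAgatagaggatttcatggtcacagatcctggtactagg
Adamts1: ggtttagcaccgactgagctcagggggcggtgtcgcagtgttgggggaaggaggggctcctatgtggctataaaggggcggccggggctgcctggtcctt

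The sum of Mmp12 comes from 3 transcripts, which were examined after the values were seen and were not tested. The protein-coding transcript was at 4.01, 5.12 and 7.27 FPKM in the model livers, 5.22, 4.41 and 1.74 FPKM in the silibinin livers and 3.48, 1.47 and 2.25 FPKM in the phloridzin livers. On its own, this transcript overlapped between the model and the silibinin livers. The transcript annotated with a retained intron was at 3.83, 4.62 and 5.51 FPKM in the model livers, at most 0.675 FPKM in the silibinin livers and at most 1.08 FPKM in the phloridzin livers. A transcript annotated for nonsense-mediated decay, a pathway that degrades faulty mRNA, was listed at 0 in all silibinin livers, at 1.76 to 3.05 FPKM in the model livers and at 4.87 FPKM in phloridzin replicate 1. The protein-coding transcript made up 40% to 49.2% of the Mmp12 sum in the model livers and 88.6% to 94.2% in the silibinin livers. In the phloridzin livers its share was 36.9%, 74.5% and 88.8%, with replicate 1 below the model livers and the others above them.

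**Figure D2:**
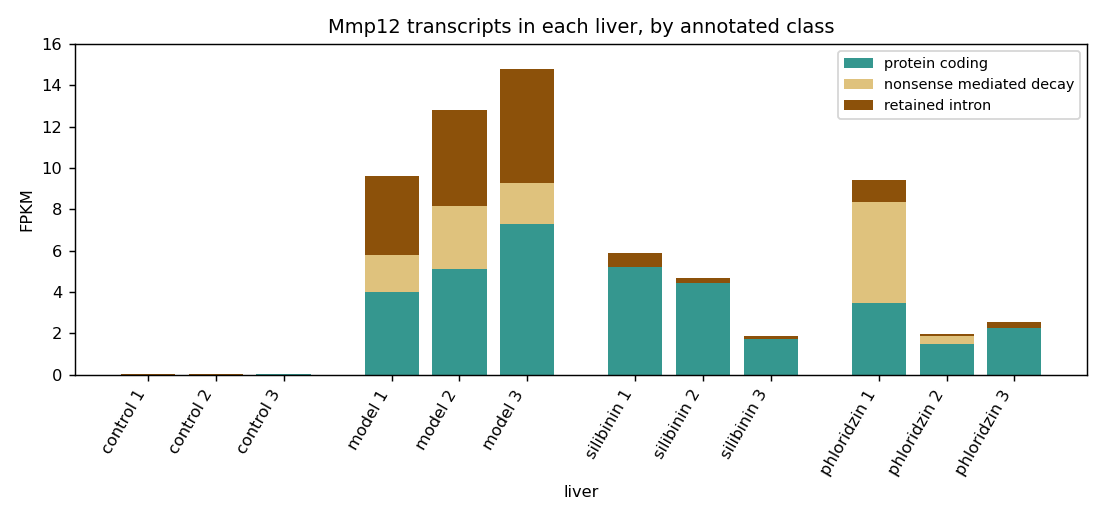
FPKM of the 3 Mmp12 transcripts stacked for each of 12 livers, by annotated class. The retained-intron transcript lies between 3.83 and 5.51 FPKM in the model livers and at or under 1.08 FPKM in every drug-treated liver, whereas the protein-coding transcript overlaps between model and silibinin livers.

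Mmp2 and Mmp9 are the gelatinases, which cut denatured collagen and the collagen of basement membranes. Mmp2 lies on chromosome 8 from 92827291 to 92853420. It was at 1.03, 0.602 and 0.694 FPKM in the control livers and at 9.03, 9.04 and 10.1 FPKM in the model livers. With silibinin the values were 8.5, 12.5 and 4.62 FPKM, on either side of the model livers, and with phloridzin 8.69, 7.28 and 7.32 FPKM, all just below them. Mmp2 rose by 2.55 on the log2 scale in the model group (standard error 0.26, limma, Benjamini-Hochberg adjusted p = 0.00013). Against the model group it differed by -0.21 with silibinin (95% interval -0.78 to 0.36, limma, adjusted p = 0.64) and by -0.25 with phloridzin (95% interval -0.82 to 0.32, adjusted p = 0.58). It was higher than in the control group by 2.34 with silibinin (limma, adjusted p = 0.0022) and 2.31 with phloridzin (adjusted p = 0.0021). Silibinin replicate 3 was low for Mmp2, and without it the silibinin difference from the model group was 0.13. Leaving out each liver in turn gave -0.5 to 0.13 for this difference.

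Mmp9, on chromosome 2 from 164940780 to 164955850, was low throughout. The control livers had 0.978, 0.634 and 0.844 FPKM and the model livers 1.29, 2.38 and 1.72 FPKM, with no overlap. The silibinin livers had 1.15, 1.05 and 0.536 FPKM, all below the model livers, and the phloridzin livers 1.01, 1.74 and 1.68 FPKM, of which the first lay below the model livers and the others among them. The difference of 0.61 between model and control (limma, adjusted p = 0.032) was under the fold change cutoff, and after scaling it was 0.40 (adjusted p = 0.17). With log2(FPKM + 0.1) it was 1.02 and with voom 1.4, and both were called (limma, adjusted p = 0.037 and 0.043). Against the model group the difference was -0.54 with silibinin (limma, adjusted p = 0.086) and -0.17 with phloridzin (adjusted p = 0.61).

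Mmp14, the membrane-bound enzyme that activates the precursor of MMP2, and Mmp19 had the highest levels of the 10 genes in all 4 groups. Mmp14, on chromosome 14 from 54431612 to 54445364, was at 11.6, 12 and 14.9 FPKM in the control livers and 16, 24 and 20.1 FPKM in the model livers. It was at 12.5 to 18.7 FPKM in the silibinin livers and 13 to 18.6 FPKM in the phloridzin livers, where it overlapped with both other groups. The model difference of 0.59 (limma, adjusted p = 0.042) was under the fold change cutoff and was 0.23 after scaling (adjusted p = 0.43). Against the model group the difference was -0.28 with silibinin (limma, adjusted p = 0.39) and -0.28 with phloridzin (adjusted p = 0.42). In model replicate 3, 10.7 FPKM of the sum came from a second coding transcript that was at or under 0.134 FPKM in every other liver, while the usual transcript was at 5.88 FPKM there. With the highest transcript alone, the differences from the model group had the opposite sign, at 0.21 with silibinin and 0.30 with phloridzin (limma, adjusted p = 0.76 and 0.65).

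Mmp19, on chromosome 10 from 128790910 to 128800824, ranged from 21.4 to 24.5 FPKM in the control livers and from 21.8 to 28.7 FPKM in the model livers. The phloridzin livers had 20.1 to 27.7 FPKM, and silibinin replicate 3, at 11.2 FPKM, stood below the other silibinin livers at 26.1 and 25.6 FPKM. Mmp19 shares 789 exon bases with Tmem198b on the opposite strand, which was at 0.302 to 2.08 FPKM by group mean. Without strand information, fragments of such a pair cannot be told apart, which holds for Timp3 and Syn3 too. Mmp19 also shares 212 exon bases with Gm47093, and Mmp12 shares 157 with Mmp1b, both on the opposite strand. The Mmp19 groups overlapped in all 6 comparisons, and the differences lay between -0.32 and 0.27. The model difference was 0.12 (95% interval -0.48 to 0.72, limma, adjusted p = 0.76), and after scaling it was -0.26. Without silibinin replicate 3 the silibinin difference from the model group, -0.32, became 0.06. Mmp19 and Mmp14 together made up 94.2% to 96.2% of the summed FPKM of the 6 metalloproteinases in the control livers and 59.5% to 62.8% in the model livers. In the drug-treated livers this share was 69.8% to 76.3% with silibinin and 68.2% to 76.4% with phloridzin.

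Timp1 is the inducible inhibitor and blocks most secreted metalloproteinases. It lies on chromosome X from 20870166 to 20874735, in a region that also holds Syn1 on the opposite strand, with no shared exon bases. It was the least abundant of the inhibitors. The control livers had 0.108, 0.0836 and a listed 0 FPKM, on at most 10 fragments, and the model livers 1.39, 2.91 and 1.45 FPKM, on 103 to 259 fragments. With silibinin the values were 0.698, 0.476 and 0.617 FPKM, and with phloridzin 1.42, 0.13 and 1.17 FPKM. All silibinin livers lay between the control and the model livers, whereas phloridzin replicate 1 reached the lowest model liver and phloridzin replicate 2 was near the controls. Timp1 rose by 1.42 on the log2 scale in the model group (standard error 0.27, limma, Benjamini-Hochberg adjusted p = 0.0031). The call was lost with the highest transcript per gene (0.95, limma, adjusted p = 0.14). The sum is split between 2 coding transcripts, and which of them carries it differs from liver to liver. The differences from the model group were not called, at -0.83 with silibinin (95% interval -1.44 to -0.23, limma, adjusted p = 0.067) and -0.65 with phloridzin (95% interval -1.25 to -0.05, adjusted p = 0.15). Leaving out 1 liver gave -0.96 to -0.60 for silibinin and -0.86 to -0.31 for phloridzin, and neither was called. For silibinin the adjusted p was then under 0.05 without phloridzin replicate 1 (0.048) or 2 (0.017), at -0.83 in both cases, under the fold change cutoff. Against the control group they were 0.59 (limma, adjusted p = 0.24) and 0.77 (adjusted p = 0.11). Without phloridzin replicate 2 the latter was 1.11 and called (limma, adjusted p = 0.024), and on log2(FPKM + 0.1) it was 2.29 and called (adjusted p = 0.047).

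Timp2 inhibits MMP2 and also takes part, with MMP14, in the activation of its precursor. On chromosome 11 from 118301069 to 118355740, it was at 3.17, 3.11 and 3.54 FPKM in the control livers and 11, 12.2 and 11.9 FPKM in the model livers. The silibinin livers had 14.1, 15.4 and 6.3 FPKM and the phloridzin livers 12.9, 10.8 and 8.95 FPKM. Every CCl4-treated liver was above every control liver, and the drug-treated livers lay on both sides of the model livers. The rise in the model group was 1.57 on the log2 scale (standard error 0.26, limma, Benjamini-Hochberg adjusted p = 0.0015). Against the model group the difference was -0.06 with silibinin (95% interval -0.64 to 0.52, limma, adjusted p = 0.91) and -0.11 with phloridzin (95% interval -0.69 to 0.47, adjusted p = 0.83). Timp2 was higher than in the control group by 1.51 with silibinin (limma, adjusted p = 0.013) and 1.46 with phloridzin (adjusted p = 0.011). The silibinin call was lost without control replicate 1, silibinin replicate 1 or silibinin replicate 2, with adjusted p of 0.051, 0.059 and 0.058.

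Timp3 differs from the other inhibitors in that it binds to the matrix, and it also inhibits ADAM and ADAMTS enzymes. It lies on chromosome 10 from 86300372 to 86349506 and shares 1733 exon bases with Syn3 on the opposite strand, whose mean level was 0.386 to 0.828 FPKM. Timp3 was at 9.57, 8.63 and 6.66 FPKM in the control livers and 16.5, 15.6 and 12.1 FPKM in the model livers. It was at 10.2, 13.3 and 9.68 FPKM with silibinin and 12.7, 16.4 and 14.8 FPKM with phloridzin. The phloridzin livers lay within the range of the model livers, and the silibinin livers lay between the control livers and the upper model livers. The model difference was 0.76 (limma, adjusted p = 0.0082), under the fold change cutoff, and 0.41 after scaling (adjusted p = 0.12). Against the model group the difference was -0.38 with silibinin (95% interval -0.77 to 0.01, limma, adjusted p = 0.18) and 0 with phloridzin (95% interval -0.39 to 0.39). Against the control group it was 0.38 with silibinin (limma, adjusted p = 0.25) and 0.76 with phloridzin (adjusted p = 0.029), also under the cutoff. Between phloridzin and silibinin it was 0.38 (95% interval -0.01 to 0.77, limma, adjusted p = 1).

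Adamts1 cuts the proteoglycans aggrecan and versican. It lies on chromosome 16 from 85793827 to 85803113 on the minus strand. The control livers were at 3.02, 3.18 and 3.37 FPKM, and the model livers at 8.85, 13.2 and 12.9 FPKM. The drug-treated livers had 2.45, 2.6 and 2.48 FPKM with silibinin and 3.11, 2.43 and 2.74 FPKM with phloridzin. All 6 drug-treated livers were below the model livers and at or slightly under the level of the controls, with the silibinin livers all below the lowest control. Adamts1 rose by 1.58 on the log2 scale in the model group (standard error 0.15, limma, Benjamini-Hochberg adjusted p = 1e-04). Against the model group it fell by 1.83 with silibinin (limma, adjusted p = 5.8e-05) and by 1.74 with phloridzin (adjusted p = 8e-05), to 21.5% and 23.6% of the model mean. The differences from the control group were -0.25 (95% interval -0.59 to 0.08, limma, adjusted p = 0.37) and -0.16 (95% interval -0.49 to 0.17, adjusted p = 0.57).

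**Figure D3:**
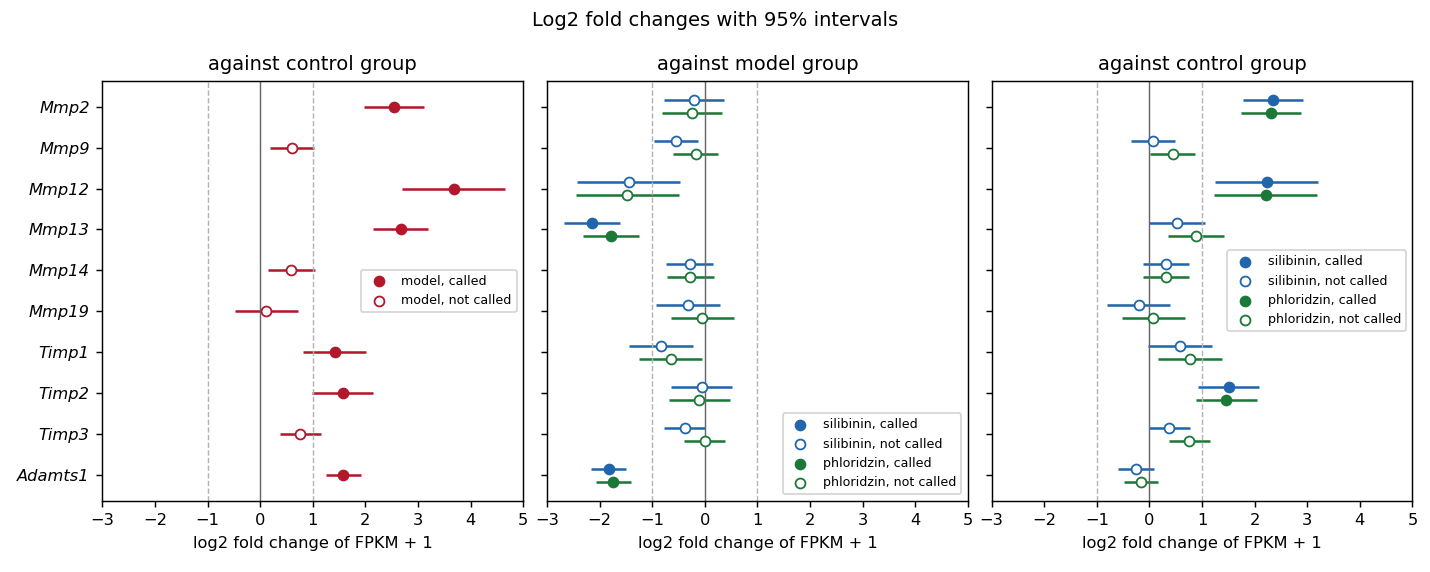
Log2 fold changes of FPKM + 1 with 95% intervals for the 10 genes, in the model group against the control group (left), in each drug group against the model group (middle) and in each drug group against the control group (right). Filled points were called, open points were not and dashed lines mark a log2 fold change of 1 in either direction, with Mmp13 and Adamts1 the filled points against the model group, and Mmp2, Mmp12 and Timp2 those of the drug groups against the control group.

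The median log2 fold change of the 10 genes in the model group was 1.5, beside 0.34 over all genes tested. The drug groups set against the model group had medians of -0.46 with silibinin and -0.26 with phloridzin, beside -0.15 and -0.11 over all genes. The medians against the control group were 0.45 with silibinin and 0.76 with phloridzin, beside 0.16 and 0.18. The levels in the drug groups ran from 8.55% of the model mean for Mmp13 to 102% for Timp2 with silibinin. With phloridzin they ran from 17.2% for Mmp13 to 99.5% for Timp3.

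The order of the mean levels also differed between groups. Mmp19 and Mmp14 came first in all 4 groups, followed in the control group by Timp3, Timp2 and Adamts1, and Mmp12 was last there at 0.0325 FPKM. In the model group Timp3, Mmp12, Timp2 and Adamts1 followed at 14.7, 12.4, 11.7 and 11.7 FPKM, and the last 3 of these lay within each other's spread over livers. Timp1 and Mmp9 were last there, at 1.92 and 1.8 FPKM. The summed level of the 6 metalloproteinases was 37.3 ± 3.25 FPKM (SD, n = 3 livers) in the control group, 74.2 ± 9.28 in the model group, 51.3 ± 17.5 in the silibinin group and 55.2 ± 9.28 in the phloridzin group. The 3 inhibitors summed to 11.6 ± 1.31, 28.3 ± 2.63, 23.6 ± 6.42 and 26.4 ± 1.34 FPKM in the same order of groups. The protease sum divided by the inhibitor sum was 2.73 to 4.02 in the control livers, 2.22 to 3.22 in the model livers, 1.87 to 2.43 in the silibinin livers and 1.79 to 2.44 in the phloridzin livers. The model livers overlapped with each other group in this ratio, while all drug-treated livers lay below all control livers. That separation is for these 9 genes alone and depends on which metalloproteinases are counted. Those outside the ratio, led by Mmp11, summed to 8 to 30 FPKM in the control livers and 12.6 to 14.3 in the model livers. They summed to 7.63 to 33.4 FPKM with silibinin and 26.6 to 30.9 with phloridzin. These sums and ratios were not tested.

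Other genes of the pathway were taken from lists made by gene family. Of 17 other metalloproteinases, 14 were in the table and 5 passed the filter. Mmp23 was called higher in the model group (1.19, limma, adjusted p = 0.0072) and in the phloridzin group against the control group (1.03, adjusted p = 0.043), as was Mmp27 in the latter comparison (1.05, adjusted p = 0.025). With either drug, limma called 0 of the 5 against the model group, and Mmp15 with silibinin and Mmp11 with phloridzin had an unadjusted p under 0.05. Mmp11 had the highest mean over all 12 livers (Mmp15 was above it in the model and silibinin groups), and it split within groups. It was at 22.2 FPKM in control replicate 3 and 16.9 FPKM in silibinin replicate 2, at 15 to 17.3 FPKM in the phloridzin livers, and at or under 0.774 FPKM in every other liver, and no comparison called it (3.42 for phloridzin against the model group, limma, adjusted p = 0.061). Of 8 other inhibitors, 4 were tested and limma called 0 in each of the 6 comparisons, with 0 to 2 at an unadjusted p under 0.05. Pzp, a plasma protease inhibitor made by hepatocytes, was the most abundant, at 1180 to 1510 FPKM by group mean.

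Among 18 other ADAMTS genes, 10 passed the filter and 6 were called higher in the model group, with a list median of 1.23. These were Adamts9 (1.67), Adamts2 (1.53), Adamts4 (1.45), Adamts10 (1.3), Adamts5 (1.23) and Adamts12 (1.22). Adamts4, a proteoglycan-cutting enzyme like Adamts1, went from 0.091 to 0.272 FPKM in the control livers to 1.16 to 2.99 FPKM in the model livers. It fell by 1.06 with silibinin (limma, adjusted p = 0.01) and by 1.15 with phloridzin (adjusted p = 0.0074), the 1 gene of this list called against the model group. Adamts9 fell by 0.76 and 0.86, under the cutoff (adjusted p = 0.0096 and 0.0059). Adamts2, which removes the amino-terminal propeptide of procollagens, was at 78.2% of the model mean with silibinin and 79.6% with phloridzin. It was higher than in the control group by 1.22 with silibinin (limma, adjusted p = 0.0095) and by 1.24 with phloridzin (adjusted p = 0.0072). Adamts5 and Adamts12 were called against the control group with silibinin (1.23 and 1.03) and were at 0.98 and 0.79 with phloridzin, and the difference between the drugs was -0.25 and -0.24 (limma, adjusted p = 1 for both). Of 12 ADAM genes, 9 were tested. Adam8, a membrane protease of leukocytes, rose by 2.98 in the model group (limma, adjusted p = 0.00034) and fell by 1.76 with silibinin and 1.65 with phloridzin (adjusted p = 0.011 and 0.016). Adam15 rose by 1.38 in the model group, and Adam9, the most abundant at 22.3 to 26 FPKM by group mean, was not called.

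The plasminogen system supplies plasmin, which cuts matrix and can activate metalloproteinase precursors. Of 10 of its genes 9 were tested, and 3 were called higher and 1 lower in the model group, with a list median of -0.31. Plaur, the receptor that holds urokinase at the cell surface, was at 0.426, 0.116 and 0.424 FPKM in the control livers and 5.03, 7.73 and 6.46 FPKM in the model livers. In the drug-treated livers it was at 0.888 to 1.16 FPKM with silibinin and 1.25 to 1.41 FPKM with phloridzin, with no overlap with the model livers. It rose by 2.48 (limma, adjusted p = 6.3e-06) and fell by 1.87 with silibinin and 1.65 with phloridzin (adjusted p = 6e-05 and 0.00012). Plau, which encodes urokinase, rose by 1.7 in the model group and was at 38.2% and 48.2% of the model mean, with differences of -0.98 and -0.77 under the cutoff (limma, adjusted p = 0.012 and 0.037). Plat, the tissue-type activator, rose by 1.84 and was still higher than in the control group by 1.4 with silibinin and 1.34 with phloridzin (limma, adjusted p = 0.023 and 0.021). Klkb1, plasma prekallikrein, a hepatocyte product, went the other way, from 24.8 FPKM in the control group to 7.03 FPKM in the model group by mean. It was higher again by 2 with silibinin and 1.61 with phloridzin (limma, adjusted p = 0.011 and 0.031). Serpine2 was called lower than in the control group with both drugs (-1.33 and -1.12, limma, adjusted p = 0.023 and 0.035), and in the model group its difference was -0.97. Plg, the precursor of plasmin and the most abundant of the list, had a mean of 776 FPKM in the control livers and 479 FPKM in the model livers, a difference of -0.69 (limma, adjusted p = 0.029).

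Of 13 genes for activation, binding and clearance of metalloproteinases, 12 were tested and 4 were called higher in the model group. Thbs1, a matrix protein that binds metalloproteinases and activates TGF-beta, was at 0.178 to 0.954 FPKM in the control livers and 7.69 to 10.2 FPKM in the model livers. It fell by 1.97 with silibinin and 2.18 with phloridzin (limma, adjusted p = 0.00011 and 6.1e-05). Its relative Thbs2 rose by 1.04 in the model group and was at 109% and 108% of the model mean with the drugs. Cd44, the hyaluronan receptor that can hold MMP9 at the cell surface, and Cd63, a tetraspanin that binds TIMP1, rose by 1.88 and 3.07 in the model group. Both were higher than in the control group with either drug, Cd44 by 1.09 and 1.11 and Cd63 by 2.14 and 1.99 (limma, adjusted p between 0.012 and 0.018). Neither was called against the model group. Cd44 fell by 0.78 with silibinin and 0.77 with phloridzin, under the cutoff and with no overlap of the livers (limma, adjusted p = 0.027 and 0.032), and Cd63 by 0.94 and 1.09 (adjusted p = 0.15 and 0.11), to 55.2% and 47.4% of the model mean. Bsg, an inducer of metalloproteinases, had the highest mean of the list over all 12 livers, though in the control group Lcn2 was above it (316 and 204 FPKM), and Bsg was not called. Of 15 cathepsins and cystatins, 13 were tested and 4 were called higher in the model group, Ctsk (1.71), Ctss (1.5), Cstb (1.36) and Ctsd (1.13), and limma called 0 against the model group, with 3 for silibinin and 1 for phloridzin at an unadjusted p under 0.05. Over all 13158 genes such a p was found for 3844 with silibinin and 3662 with phloridzin. Ctsk, a collagen-cutting cathepsin, and Ctsd, a lysosomal protease, stayed above the control group with both drugs, Ctsk by 1.26 and 1.36 and Ctsd by 1.7 and 1.64. Ctsl had the highest mean of this list over all 12 livers, though in the silibinin group Ctsd was above it (270 and 220 FPKM), and Ctsl was not called.

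**Figure D4:**
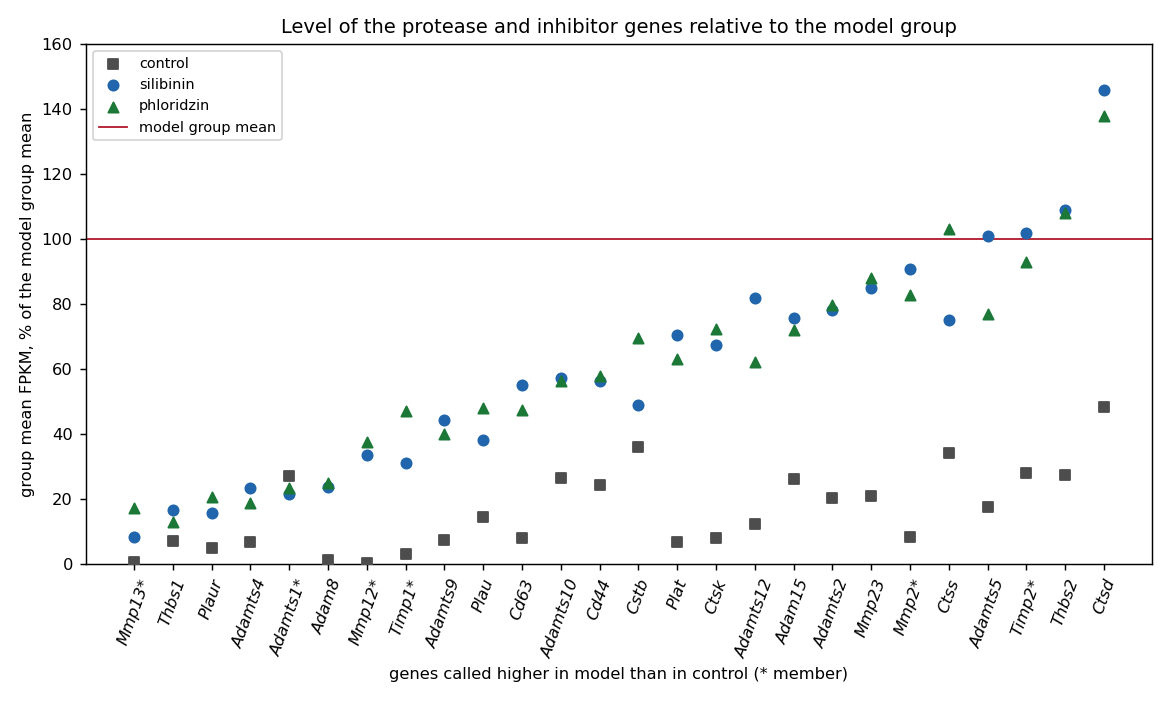
Group mean FPKM as a percentage of the model group mean, for the 26 protease, inhibitor and related genes called higher in the model group than in the control group without scaling, sorted by their level with the drugs. Mmp13, Thbs1, Plaur, Adamts4, Adamts1 and Adam8 lie under 25% with both drugs, and Timp2, Thbs2 and Ctsd lie near or above the model mean.

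Genes with the most similar profile were sought for Mmp2, Mmp12 and Timp1, by the root mean square difference of log2(FPKM + 1) over the 12 livers after centring and division by the SD. No p was computed. Nearest to Mmp2 were Mxra8 (0.14), Mrc2 (0.15) and Pamr1 (0.15). Mxra8 was at 2.96 FPKM in the control group, 9.23 in the model group, 8.31 with silibinin and 8.69 with phloridzin by mean. Nearest to Mmp12 were Hip1 (0.14), Arhgap22 (0.14) and B4galt6 (0.16), and Arhgap22 was at 0.108, 3.02, 1.29 and 1.69 FPKM in the same order. For Timp1, the nearest were Dcaf1, Bhlhe40 and Agps, all at 0.36, a wider distance than for the other 2 genes.

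Markers of the cell types of the liver were counted in the same way. In whole liver, fewer cells of a type and less RNA per cell cannot be told apart. Of 12 stellate cell and myofibroblast markers, all were tested, 6 were called higher in the model group (Col1a1, Col3a1, Col1a2, Lrat, Lox and Tagln) and limma called 0 against the model group with either drug, with 1 for silibinin and 2 for phloridzin at an unadjusted p under 0.05. Over all 13158 genes the latter numbers were 3844 and 3662. Lrat was under the cutoff with phloridzin (-0.83, limma, adjusted p = 0.015). Against the control group, 3 of the 12 were called higher with silibinin (Col1a1, Col3a1 and Lox) and 3 with phloridzin (Col1a1, Col3a1 and Tagln). Their summed level, led by Reln in the control group and by Col3a1 in the other 3 groups, was 37.4, 27.5 and 32.6 FPKM in the control livers, 178, 146 and 182 in the model livers, 172, 167 and 84 in the silibinin livers and 232, 99.6 and 78.5 in the phloridzin livers. No marker of this list was listed at 0 in any liver. Silibinin replicate 3, the lowest of its group for 8 of the 10 genes (not Timp1 and Adamts1), was also the lowest for this sum. It was the lowest for the macrophage, neutrophil and endothelial sums below too, but the highest for the lymphocyte sum. Phloridzin replicate 1, the highest of its group for Mmp2, Mmp12, Mmp13, Timp1, Timp2, Adamts1 and Mmp19, was the highest for the stellate cell and myofibroblast sum. It was the lowest of its group for Mmp9 and Timp3. For the macrophage and lymphocyte sums this liver was the highest, for the neutrophil sum the lowest, and for the endothelial sum between the others. The part of these cells in the values of the proteases was not tested.

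Of 14 macrophage markers, 5 were called higher in the model group, Gpnmb (4.73), Trem2 (2.78), Spp1 (1.94), Itgam (1.69) and Ccr2 (1.35), and limma called 0 against the model group with either drug, with 0 for silibinin and 2 for phloridzin at an unadjusted p under 0.05. Over all 13158 genes the latter numbers were 3844 and 3662. Against the control group, 4 of the 14 were called higher with silibinin, among them Gpnmb (4.39), and 6 with phloridzin, among them Gpnmb (4.25) and Marco (3.27). Summed, and led by Cd5l, the markers were at 128, 197 and 162 FPKM in the control livers, 263, 404 and 330 in the model livers, 283, 342 and 276 in the silibinin livers and 473, 410 and 261 in the phloridzin livers. Gpnmb was listed at 0 in control replicate 2. The macrophage sums of the drug-treated livers overlapped those of the model livers, while Mmp13 was at 8.55% and 17.2% of its model mean. Single markers went both ways. By sign, 3 of the 14 were higher with silibinin than in the model group and 7 with phloridzin, beside 34.2% and 38.9% of all genes. Itgam was at 67.9% of its model mean with silibinin and 53.2% with phloridzin, and Marco at 136% and 220%. The part of macrophages in the values of Mmp12 and Mmp13 was not tested. Of 10 neutrophil markers 5 were tested, and Retnlg was called higher in the model group (1.2) and lower with silibinin (-1.36, limma, adjusted p = 0.041). Their sum, led by S100a8, was 22.8, 9.25 and 24.6 FPKM in the control livers, 30.7, 76.3 and 47.8 in the model livers, 20.2, 29.8 and 11.9 in the silibinin livers and 24.7, 92.3 and 44.4 in the phloridzin livers. Mpo, Elane, Ly6g and S100a9 were listed at 0 in some livers. Mmp9 is known as a neutrophil gelatinase, and the part of neutrophils in its values was not tested.

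Among 10 endothelial markers and 9 lymphocyte markers, 10 and 5 were tested and limma called 0 in each of the 6 comparisons, with 0 to 2 endothelial and 0 to 3 lymphocyte markers at an unadjusted p under 0.05. The endothelial sum, led by Clec4g, was 91.4, 80.6 and 104 FPKM in the control livers, 102, 120 and 104 in the model livers, 73.7, 120 and 54.1 in the silibinin livers and 119, 135 and 100 in the phloridzin livers. By sign, 0 of the 10 endothelial markers were higher with silibinin than in the model group (median -0.37, beside -0.15 over all genes). All 10 were higher with phloridzin than with silibinin (median 0.5, beside 0.03) and than in the control group (0.4, beside 0.18). In the model group 9 were higher than in the control group, 8 were higher with phloridzin than in the model group, and 4 with silibinin than in the control group. The lymphocyte sum was 1.97, 3.58 and 2.02 FPKM in the control livers, 4.2, 8.02 and 5.84 in the model livers, 3.56, 6.08 and 6.43 in the silibinin livers and 12.6, 8.13 and 5.55 in the phloridzin livers, so every CCl4-treated liver but silibinin replicate 1 was above every control liver. All 5 tested lymphocyte markers were higher than in the control group in each of these 3 groups by the sign of the difference, with 2 of them in the model group, 1 with silibinin and 3 with phloridzin at an unadjusted p under 0.05. In the same order, 76%, 70.9% and 73.4% of all genes were higher than in the control group. By limma, 6030, 2830 and 3235 of all 13158 genes had an unadjusted p under 0.05. Nkg7 had the highest mean of that list over all livers, with Cd3e above it in the control group, and no marker of either list was listed at 0 in any liver. The part of lymphocytes and endothelial cells in the values of the proteases was not tested. Of 8 cholangiocyte markers 4 were tested. Spp1, which is also a macrophage marker and led this list, was called higher in the model group and Krt19 in the phloridzin group against the control group (1.22). Of 12 hepatocyte markers 11 were in the table and tested, and Alb was the most abundant, at 12700 to 22300 FPKM by group mean. Of these, Cyp2e1, the enzyme that activates CCl4, was called lower in the model group (-2.35, limma, adjusted p = 0.0014) and in the phloridzin group (-2.56, adjusted p = 0.0063) against the control group. With silibinin it was at -1.3 (adjusted p = 0.084), and the difference between phloridzin and silibinin was -1.26 (limma, adjusted p = 1).

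**Figure D5:**
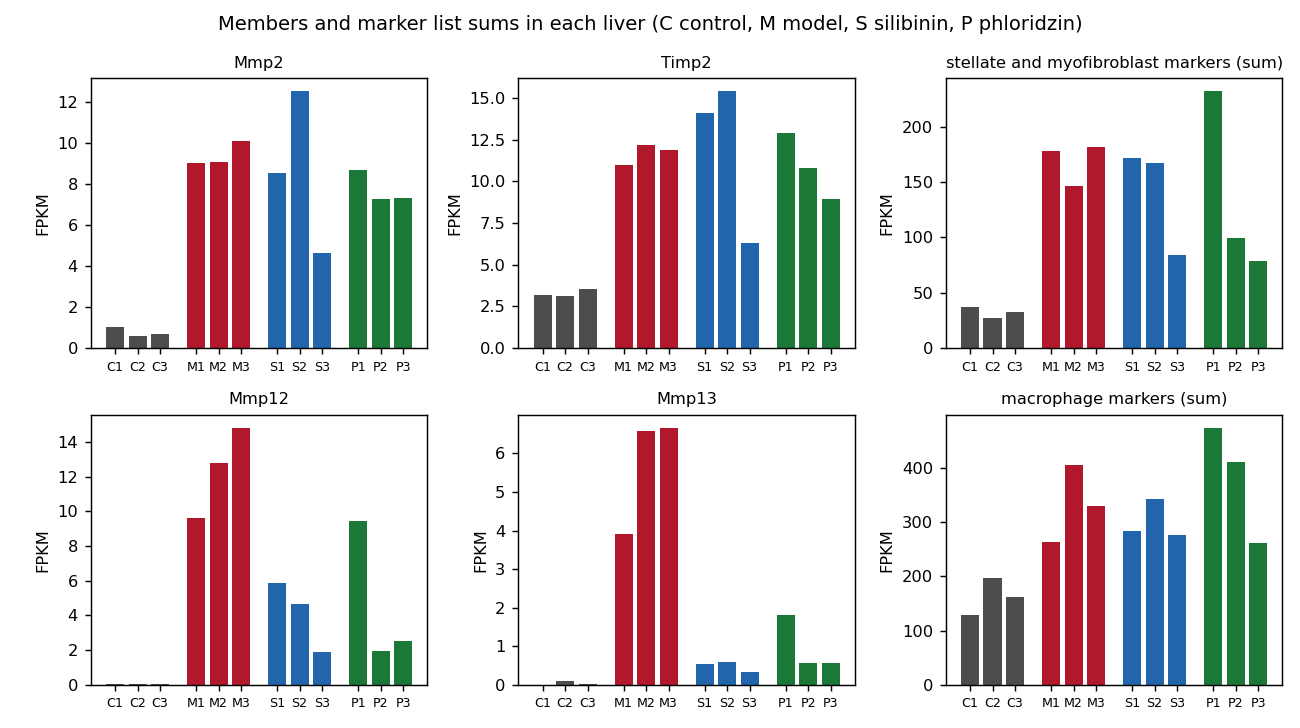
FPKM of Mmp2, Timp2, Mmp12 and Mmp13 and the summed FPKM of 12 stellate cell and myofibroblast markers and 14 macrophage markers in each of 12 livers, with 1 bar a liver. Silibinin replicate 3 is the lowest and phloridzin replicate 1 the highest of their groups for Mmp2, Timp2, Mmp12, Mmp13 and both marker sums.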

How the data were processed

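The authors deposited 1 table of FPKM values for 169430 transcripts in 12 livers. The submitters' processing notes name the mm10 build, bcl2fastq, FastQC 0.11.5, HISAT2 2.1.0, StringTie 1.3.3b and DESeq 1.28.0. Whether counting used the strand is not given in the sources used here. Fragments per library were recovered from the steps between values of 3000 transcripts of at least 1500 bases, of which 98.3% to 98.8% gave a number within 0.1 of a whole one. FPKM was summed by gene symbol. Genes with a mean of at least 0.5 FPKM were compared in 1 limma fit with trend over all 12 livers, on log2(FPKM + 1), with tests of both directions. The steps were tested on simulated data. Likeness was computed over genes with a mean of at least 1 FPKM. Tools were R 4.3.3, limma 3.58.1, Python 3.11.15, numpy 2.4.6, pandas 2.3.3 and matplotlib 3.10.9. All 10 members were named, and of every other list the genes called in any comparison (at most the 6 with the largest fold changes) and the most abundant gene. The members and lists were chosen with earlier results of these data known. Alternatives were 9 other settings and leaving out each of the 12 livers. A gene of the plasminogen system and a lymphocyte marker are not reported here, and the counts, medians and sums of their lists leave them out.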

Additional observations from a re-analysis of the deposited data

How the results depend on the processing

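Of 1260 fold changes of the 10 genes under the alternatives, 1185 kept their sign and their side of the threshold, 13 lost a call and 21 gained one. A further 38, whose value as reported was within 1 standard error of 0, differed in sign without a call, and were at most 0.33 in size. The last 3, past 1 standard error, had the opposite sign. With the highest transcript per gene, Mmp14 was at 0.21 with silibinin and 0.3 with phloridzin against the model group. Mmp19 in the silibinin group against the model group ranged from -0.52 to 0.06 on leaving out 1 liver, the highest without silibinin replicate 3. Many of the 1260 could not differ in size or sign from the values reported. These are no cutoff, the replicate block, only the 2 groups compared, rows with an Ensembl ID only, and leaving out a liver of neither group compared. Their kept signs say nothing on robustness, and at most the call could change there.

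The number of genes called in the model group against the control group was 2596 with log2(FPKM + 0.1), 4594 with no fold change cutoff and 2535 with voom. For silibinin against the model group it was 1849 with no cutoff and 795 with voom, and for phloridzin against the model group 702 with log2(FPKM + 0.1) and 1691 with no cutoff. Between phloridzin and silibinin it was 0 with only the 2 groups in the fit (3 in the fit of all livers), 5 with the highest transcript, and 1 to 5 on leaving out 1 liver. For silibinin against the control group it was 828 with log2(FPKM + 0.1), 117 with the highest transcript, 661 with no cutoff, 688 with voom and 102 to 399 on leaving out 1 liver. For phloridzin against the control group it was 1103, 190, 1051 and 937 under the same settings, 143 with only the 2 groups and 210 to 634 on leaving out 1 liver. The members called against the control group were 1 to 3 with silibinin and 2 to 4 with phloridzin on leaving out 1 liver, and 5 with phloridzin both on log2(FPKM + 0.1) and with no cutoff. The cause was not tested.

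With the replicate number as a block, 6, 2, 2, 0, 3 and 3 members were called, as without it, and 1363, 508, 449, 3, 237 and 347 genes, starting with the model group set against the control group, followed by each drug set against the model group, the drugs set against each other, and each drug set against the control group. The numbers did not pair the livers: the correlation of deviations between livers of the same number ran from -0.09 to 0.1 over 18 pairs, and between other numbers from -0.17 to 0.15.

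Depth limits Mmp13 and Timp1 in the control livers, which rest on at most 28 and 10 fragments, and Mmp12 there, on 12 to 18.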
